A study of Mus musculus with 18 samples.

Results

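In mouse gastruloids, 139 of the 55385 genes of the deposited count table formed the set of genes that were at least 2-fold higher at the end of an early pulse of the Wnt activator CHIR and were not higher at the end of a later pulse. Levels are CPM (counts divided by the total count of the library and scaled to the same total in all), and the set was chosen on group means of log2(CPM + 1). A gene was kept where the mean of the early libraries of 48 h was at least 1 above that of the controls of 48 h and the mean of the controls of 72 h was not above that of the controls of 48 h. Every early library of 48 h also had to lie above every control library of 48 and 72 h. The first condition held for 483 genes, and 139 of those met the second. The condition on separate libraries removed none of them. Because these 3 groups chose the genes, their values are described below and not tested.

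Gastruloids are aggregates of mouse embryonic stem cells that, left to elongate, form progenitors of the trunk and tail. All 6 groups were wild type (WT) on the strain 129/SVEV. CHIR blocks the kinase GSK3, so that β-catenin accumulates. There were 6 groups of 3 libraries of polyA RNA. The 48h_Early, 72h_Early and 96h_Early groups received CHIR between 24 and 48 h after aggregation and were collected at 48, 72 and 96 h. The 72h_CTL and 96h_CTL groups received it between 48 and 72 h, the usual time, and the 48h_CTL group was not yet treated. Each tube held many gastruloids of 1 condition. Whether the 3 libraries of a group stem from separate cultures is not stated in the labels. The p-values then speak only of the spread among these libraries, and that spread may be technical. No earlier library and no untreated library of 72 h was analysed here. A rise under the early pulse therefore cannot be told apart from a level kept from before, nor the second pulse from the extra day of age. In bulk RNA, fewer cells of a type and less RNA per cell cannot be told apart either.

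Mouse embryonic stem cells are held in a naive state by a network of transcription factors that includes Esrrb, Klf2, Tfcp2l1, Nr5a2 and Tbx3. GSK3 inhibition is one of the means used to keep them there, because β-catenin relieves repression of this network by TCF7L1. When cells leave the naive state, these genes are switched off, and many germline genes and retrotransposon-linked genes are silenced as DNA methylation rises. Zfp42 (Rex1) is the textbook reporter of the naive state.

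Total counts ran from 14841728 to 24536538 per library. The third control library stood apart from the others of its group at each age: its chi-square per degree of freedom against them was 15.4 to 28.1, against 1.41 to 7.90 for all other replicate pairs. At 48 h it lay above both other controls at 100 of the 114 member genes with at least 1 CPM there, so it reduced the differences on which the genes were chosen. Without the third control libraries the same conditions selected 165 genes, which held 131 of the 139.

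The set as a whole was highest at the end of the early pulse and lower on each later day in the early arm. Summed over the 139 genes, the level was 6224 to 6561 CPM in 48h_Early against 1973 to 2775 CPM in 48h_CTL. The sums were 3225 to 3324 CPM in 72h_Early against 1213 to 1351 CPM in 72h_CTL, and 2226 to 2313 CPM in 96h_Early against 1559 to 3011 CPM in 96h_CTL. Fn1 and Tdgf1, the members of highest count, held much of these sums, and without them the sums at 96 h were 1369 to 1536 CPM in 96h_Early and 837 to 878 CPM in 96h_CTL. Of the 139 genes, 132 had their highest mean in 48h_Early, 5 in 96h_CTL and 2 in 96h_Early. In the early arm 131 genes stood in the order 48 h, 72 h, 96 h from high to low, and in the control arm 90 did. The choice of genes favoured a high 48h_Early and fixed the control step from 48 to 72 h. These counts are therefore a description, and they were not made over all genes tested.

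**Figure D1:**
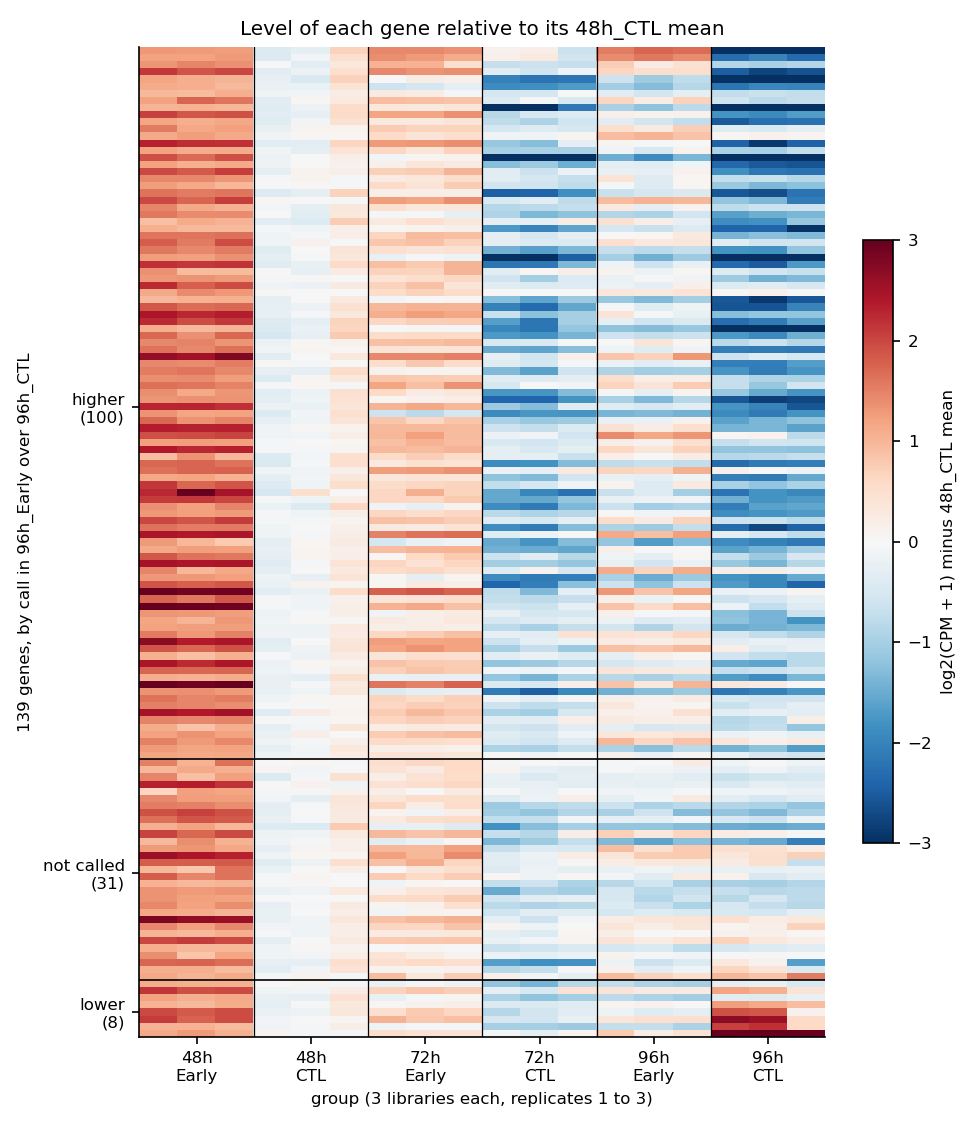
Each line is 1 of the 139 genes and each column 1 library, coloured by log2(CPM + 1) minus the gene's 48h_CTL mean, red above and blue below. Genes are sorted by the test of 96h_Early against 96h_CTL (100 higher, 31 not called, 8 lower). The 48h_Early columns are red throughout because that difference chose the genes, and the 72h_Early columns are paler than they.

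The median difference of 48h_Early minus 48h_CTL was 1.40 in log2(CPM + 1), with a range of 1.00 to 3.07, and 23 genes reached 2. The median of 72h_CTL minus 48h_CTL was -0.53, and 44 genes were at -1 or lower. Genes near the edge of the rule were hardly different from those left out: Slc17a9, Itgb7 and Fn1 had differences of 1.00, 1.00 and 1.01, and the nearest genes outside, Sdr39u1, Gm14411 and Usp26, had 1.00, 1.00 and 0.99. For the control step, Pigl, Adrb3 and Pdyn lay just inside at -0.01, -0.02 and -0.02, and 2500002B13Rik, A730049H05Rik and Tead4 just outside at 0.00, 0.03 and 0.03. By mean level the set ran from 1.36 to 942 CPM in 48h_Early, with a median of 15.4 CPM. Per transcript length, Tdgf1 averaged 163 FPKM in 48h_Early against 72.9 FPKM in 48h_CTL and Dnmt3l 106 FPKM in 48h_Early against 29.9 FPKM in 48h_CTL.

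A day after CHIR was withdrawn, the early arm still held most of these genes above the controls of its age. All 3 libraries of 72h_Early lay above all 3 of 72h_CTL at 138 of the 139 genes, against 24.9% of the 16041 genes tested. They lay above all 3 libraries of 48h_CTL, which had not yet had their pulse, at 86 of 139 genes, against 35.3% of the genes tested. At the same time they lay below all 3 of 48h_Early at 135 of 139 genes, against 21.3%. The median change of 72h_Early minus 48h_Early was -0.97 in log2(CPM + 1). At 96 h, all 3 libraries of 96h_Early still lay above all 3 of 72h_CTL at 91 genes, against 20.9% of the genes tested. These 4 counts use groups that also chose the genes and are given as a description.

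A list of 20 naive-state genes contributed 6 members: Zfp42, Nr5a2, Nr0b1, Fbxo15, Pecam1 and Tcl1. Zfp42, the reporter of the naive state, had 154, 149 and 152 CPM in 48h_Early against 26.7, 30.0 and 31.5 CPM in 48h_CTL. It had 58.1, 59.0 and 57.2 CPM in 72h_Early against 18.7, 17.4 and 21.7 CPM in 72h_CTL. It ended at 40.3, 34.6 and 41.9 CPM in 96h_Early against 10.5, 10.8 and 8.93 CPM in 96h_CTL. No early library overlapped a control library of its own age, and the early libraries were lower at each later age. The log2 fold change of 96h_Early over 96h_CTL was 1.93 ± 0.09 (± SE; edgeR quasi-likelihood test with Benjamini-Hochberg adjustment, adjusted p = 4.09e-12). That of 96h_Early over 72h_Early was -0.63 ± 0.08 by the same edgeR test (adjusted p = 7.90e-06).

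Nr5a2, an orphan nuclear receptor that drives Pou5f1 expression, had the second largest 48 h difference of the set, 2.96 in log2(CPM + 1). Its levels were 43.9, 41.8 and 40.5 CPM in 48h_Early against 4.33, 4.09 and 5.24 CPM in 48h_CTL. Most of that height was gone a day later, at 10.4, 11.1 and 9.16 CPM in 72h_Early against 2.64, 2.55 and 3.64 CPM in 72h_CTL. At 96 h Nr5a2 had 9.01, 7.23 and 9.35 CPM in 96h_Early and 3.87, 2.33 and 3.24 CPM in 96h_CTL, a log2 fold change of 1.40 ± 0.16 that passed the test. The step to 96h_Early from 72h_Early was -0.32 ± 0.14 and did not pass it.

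Nr0b1 (Dax1), a partner and repressor of nuclear receptors, had 40.2, 37.7 and 39.6 CPM in 48h_Early against 8.75, 11.0 and 10.9 CPM in 48h_CTL. By 72 h it had 10.7, 12.7 and 11.9 CPM in 72h_Early, about the level of untreated 48 h gastruloids, against 1.15, 1.70 and 3.71 CPM in 72h_CTL. Fbxo15, an F-box protein used as a pluripotency reporter, had 50.2, 47.9 and 50.2 CPM in 48h_Early against 7.59, 7.95 and 9.55 CPM in 48h_CTL, and kept 25.3, 27.7 and 28.7 CPM in 72h_Early against 6.21, 7.43 and 8.29 CPM in 72h_CTL. Nr0b1 and Fbxo15 thus differed in how much of the 48 h level was left a day later. At 96 h both were higher in 96h_Early than in 96h_CTL, with log2 fold changes of 1.49 ± 0.29 for Nr0b1 and 1.73 ± 0.13 for Fbxo15.

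Pecam1, an adhesion protein of naive stem cells and of endothelium, had 73.1, 72.9 and 67.9 CPM in 48h_Early against 12.4, 12.3 and 18.7 CPM in 48h_CTL. It was higher in 96h_Early than in 96h_CTL (log2 fold change 1.96 ± 0.25) and lower in 96h_Early than in 72h_Early (-1.59 ± 0.19). Of 4 endothelial genes, Cdh5 was at 0 to 0.0575 CPM in 48h_Early and 0 to 0.0941 CPM in 48h_CTL, and Kdr at 1.27 to 1.51 CPM in 48h_Early and 0.0941 to 0.187 CPM in 48h_CTL, without overlap. Their summed level was 7.73 to 9.35 CPM in 48h_Early and 10.8 to 12.4 CPM in 48h_CTL, a difference carried by Tek (5.71 to 6.86 CPM in 48h_Early and 10.3 to 11.5 CPM in 48h_CTL). The sums at 72 h were higher in the early arm without overlap, at 6.05 to 6.15 CPM in 72h_Early and 2.58 to 3.23 CPM in 72h_CTL. At 96 h the sums were 2.54 to 3.10 CPM in 96h_Early and 1.94 to 3.71 CPM in 96h_CTL. The part of such cells in the result was not tested. Tcl1, a co-activator of AKT, was scarce, at 4.94, 3.97 and 5.56 CPM in 48h_Early against 0.535, 0.847 and 0.687 CPM in 48h_CTL. Its log2 fold change of 96h_Early over 96h_CTL was 2.48 ± 0.34, and 3.24 without the first 96h_CTL library.

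Tdgf1 (Cripto), the co-receptor for Nodal, did not share the decline. It had 417, 410.1 and 406 CPM in 48h_Early against 126, 141 and 272 CPM in 48h_CTL, and it stayed at 464, 463 and 441 CPM in 72h_Early against 186, 193 and 107 CPM in 72h_CTL. At 96 h it stood at 493, 571 and 539 CPM in 96h_Early, while the 96h_CTL libraries held 16.9, 13.8 and 8.48 CPM. In the early arm every library of both later days therefore stood above every 48h_Early library, and the control arm nearly lost the transcript by 96 h. The log2 fold change of 96h_Early over 96h_CTL was 5.31 ± 0.29 (edgeR quasi-likelihood adjusted p = 3.72e-11), the highest of the 139 genes. Its step in 96h_Early over 72h_Early, 0.18 ± 0.22, was not called. The processed pseudogene Tdgf1-ps1 was likewise higher at a lower count (17.4, 19.7 and 17.6 CPM in 96h_Early against 0.417, 0.720 and 0.388 CPM in 96h_CTL), and Zfp42-ps1, like Zfp42, was higher in 96h_Early than in 96h_CTL and lower than in 72h_Early. How reads shared by a gene and its pseudogene were assigned is not given in the sources used here, so these pseudogene counts are uncertain. Zfp296, a zinc finger partner of the reprogramming factors, and the ETS factor Spic were the other pluripotency genes of the set, and both were higher in 96h_Early than in 96h_CTL (log2 fold changes of 1.32 ± 0.14 and 2.34 ± 0.65). Spic had 1.23, 1.73 and 1.51 CPM in 48h_Early against 0.0486, 0 and 0 CPM in 48h_CTL.

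**Figure D2:**
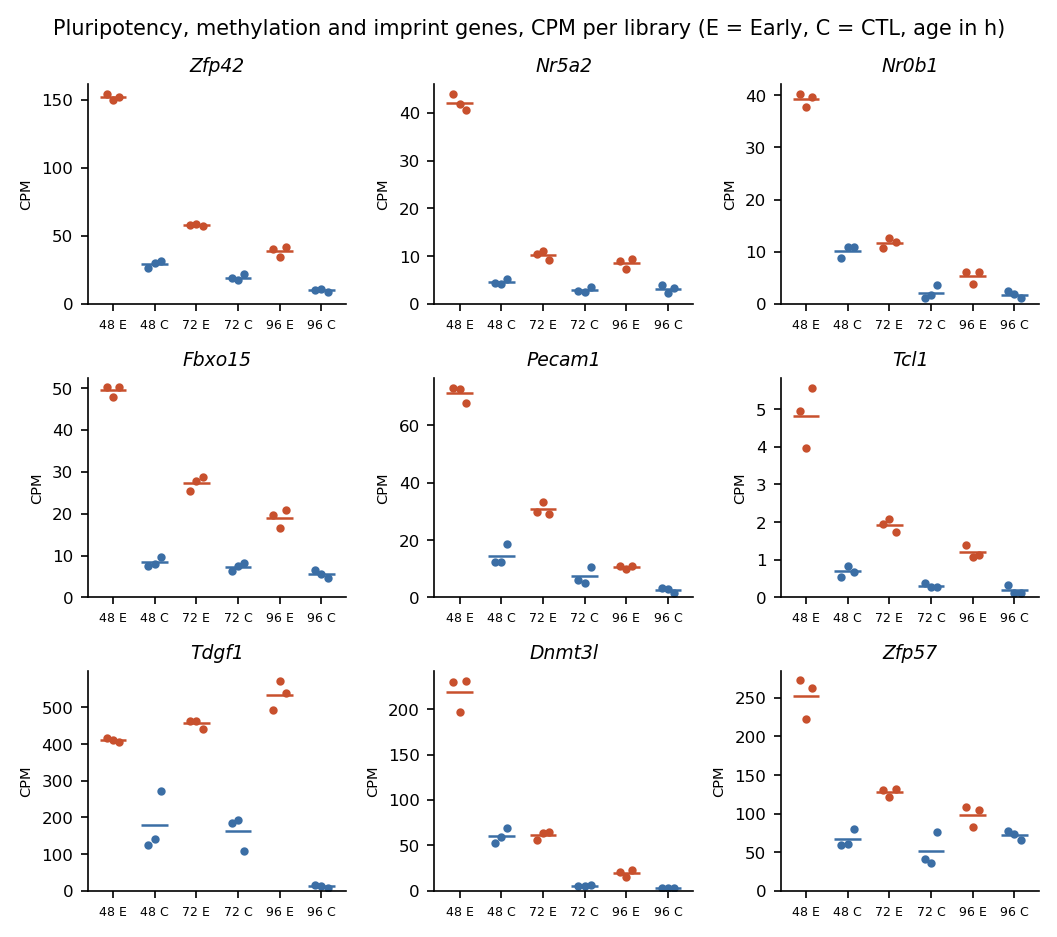
CPM of 9 genes of pluripotency, DNA methylation and imprinting in each library (points) and group means (bars), with Early in red-orange left of CTL in blue at each age. The panels start at 0. Zfp42 and Fbxo15 fall stepwise in the early arm, and Tdgf1 stays between 406 and 571 CPM in all early libraries. Zfp57 is just short of the call at 96 h, with libraries that do not overlap.

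The naive list shows what the rule left out as well as what it took in. Of the others, 8 missed the set because 72h_CTL lay above 48h_CTL: Esrrb, Tbx3, Klf2, Klf5, Tfcp2l1, Prdm14, Tdh and Jam2. Their 48 h differences were 3.50 for Esrrb, 3.48 for Jam2, 3.31 for Tbx3, 3.23 for Klf2 and 3.11 for Tfcp2l1. For Esrrb, the orphan receptor at the centre of the network, the libraries had 186, 167 and 187 CPM in 48h_Early and 24.1, 22.1 and 34.4 CPM in 72h_CTL, against 13.2, 14.5 and 17.4 CPM in untreated 48h_CTL. For Tfcp2l1 the 72h_CTL libraries had 33.4, 37.6 and 31.6 CPM against 7.39, 7.15 and 7.12 CPM in 48h_CTL. These genes thus stood above the untreated level at the end of either pulse, to different degrees, while the 6 members did so at the end of the early one. The remaining genes, Klf4, Dppa3, Sox15, Gbx2, Spp1 and Lifr, had 48 h differences under 1, from -0.04 for Sox15 to 0.86 for Lifr. Over all 20 genes the summed level was 1299 to 1392 CPM in 48h_Early against 231 to 267 CPM in 48h_CTL.

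Other signalling lists gave the set few or no genes. Of all 16041 genes tested only 139 were members, and at that share lists this short would hold few or none. None of the 18 Wnt feedback and target genes, 13 FGF ligands and feedback genes, 10 LIF and STAT3 genes or 13 formative and primed epiblast genes was a member. Of the Wnt genes, 12 had a 48 h difference under 1 and the other 6 had a higher mean in 72h_CTL than in 48h_CTL. Their summed level was 994 to 1058 CPM in 48h_Early against 833 to 889 CPM in 48h_CTL. The formative and primed genes, which mark cells on leaving the naive state, summed to 2910 to 2938 CPM in 48h_Early against 6722 to 6894 CPM in 48h_CTL. The primitive streak list, which also gave no member, summed to 178 to 204 CPM in 48h_Early against 14.3 to 19.3 CPM in 48h_CTL. From the lists that did contribute came Tdgf1 among 12 general pluripotency and 8 Nodal pathway genes, Dnmt3l among 9 DNA methylation genes, Hormad1 among 20 germline genes, Hnf4a among 14 extraembryonic endoderm genes and Pfkp among 14 hypoxia and glycolysis genes.

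At 96 h, 2 days after the early pulse ended and 1 day after the control pulse ended, most of the set was still higher in the early arm. Neither 96 h group had been used to choose the genes. In the edgeR quasi-likelihood test, called at an adjusted p under 0.05, 100 of the 139 genes were higher in 96h_Early than in 96h_CTL, 8 were lower and 31 were not called. Over all 16041 genes tested, 29.5% were higher and 29.6% lower. The median log2 fold change was 1.73 over the set and -0.01 over all genes. At least 2-fold higher were 91 of the 139 members and 1870 of the 16041 genes tested. All 3 libraries of 96h_Early lay above all 3 of 96h_CTL at 103 members, against 31.6% of the genes tested. Pfkp, Zfp42, Manba, Trap1a and Zfp459 had the lowest adjusted p-values. Pfkp, the platelet-type phosphofructokinase of glycolysis, had 67.5, 62.4 and 62.3 CPM in 96h_Early against 17.8, 19.0 and 20.1 CPM in 96h_CTL (log2 fold change 1.75 ± 0.07, edgeR quasi-likelihood adjusted p = 3.53e-13). Manba, the lysosomal β-mannosidase, had 22.5, 18.6 and 23.7 CPM in 96h_Early against 5.71, 5.71 and 5.50 CPM in 96h_CTL. In both genes the libraries of a group lay far closer to each other than to those of the other group.

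Within the early arm the set went down between 72 and 96 h. In 96h_Early against 72h_Early, 113 genes were lower, 2 were higher and 24 were not called, where 17.6% of all genes tested were lower and 17.6% higher. The median log2 fold change was -0.92 over the set and 0.01 over all genes. All 3 libraries of 96h_Early lay below all 3 of 72h_Early at 123 members, against 21.9% of the genes tested. Dnmt3l, the catalytically inactive partner of the de novo DNA methyltransferases, had the lowest adjusted p of the falls: 19.7 ± 3.69 CPM in 96h_Early against 61.6 ± 4.44 CPM in 72h_Early (mean ± SD, n = 3 each), a log2 fold change of -1.70 ± 0.12. Cd80, a co-stimulatory ligand, had a log2 fold change of -1.67 ± 0.16 and the tripartite-motif gene Triml2 one of -1.31 ± 0.14. Slc7a1, the cationic amino acid transporter, had one of -0.82 ± 0.09 and Pfkp one of -0.72 ± 0.06. The 2 genes that were higher in 96h_Early were the RNA helicase Mov10 (0.23 ± 0.09) and the phospholipase Pla2g4e (1.00 ± 0.34). Neither call was stable: leaving out 1 library of 72h_Early or 96h_Early ended one or both in 6 of 6 cases, Mov10 was also lost without the second 48h_CTL, the third 48h_Early or the first 72h_CTL library, and neither was called by the DESeq2 Wald test.

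Both tests share the 96h_Early libraries, and their joint classes were counted for the members only. Of all genes tested, 29.5% were higher in the first test and 17.6% lower in the second, each taken alone. Taking both tests, 82 genes were higher in 96h_Early than in 96h_CTL and lower in 96h_Early than in 72h_Early: still above the control arm while on the way down. A group of 16 genes was higher than in 96h_CTL with no called step since 72h_Early, among them Tdgf1, Nr5a2, Spic, Hnf4a, the small heat shock protein gene Hspb1, the peptidase gene Dpp4 and the T-cell co-stimulatory ligand gene Icosl. Another 26 were lower than in 72h_Early and not called against 96h_CTL, among them Cd80, Ddx58, Kat6b, Slc7a1, Mmrn2 and Zfp229. Lower in both comparisons were Arid5b, Cobl, Fn1, Hydin and Nlrc4. The call of Fn1 against 72h_Early was lost without the second 72h_Early library (-0.75) or the third 96h_Early library (-0.70), and that of Nlrc4 without the second library of 72h_Early (-1.01) or of 96h_Early (-1.03). Both were also lost on log2(FPKM + 0.1) and log2(FPKM + 1).

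Set 1 day after the end of its own pulse, each arm could also be compared at unlike ages, 72h_Early against 96h_CTL. Here 127 genes were higher, 5 were lower and 7 were not called, where 34.3% of all genes tested were higher and 35.4% lower. The median log2 fold change was 2.68 over the set and -0.01 over all genes. All 3 libraries of 72h_Early lay above all 3 of 96h_CTL at 129 members, against 33.9% of the genes tested. Dnmt3l had 56.5, 63.7 and 64.6 CPM in 72h_Early against 2.87, 2.66 and 3.63 CPM in 96h_CTL, a log2 fold change of 4.38 ± 0.15. The lower genes were Gprc5a, Slc4a5, Fn1, Lgals3 and Nlrc4, of which Nlrc4 (-0.90 ± 0.30) was not called without the first (-0.63) or the second (-0.68) 96h_CTL library, with only the groups compared or on log2(FPKM + 0.1) and log2(FPKM + 1). This comparison shares its libraries with the 2 others, and the day of age cannot be told apart from the time of the pulse.

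For the naive list the same tests were run on all 20 genes. In 96h_Early over 96h_CTL, 13 were higher, 2 lower (Klf5 and Gbx2) and 5 not called, where 29.5% of all genes tested were higher and 29.6% lower. Tdh, threonine dehydrogenase of stem cell metabolism, had 104, 88.9 and 115 CPM in 96h_Early against 13.3, 12.6 and 13.2 CPM in 96h_CTL (log2 fold change 2.96 ± 0.08), and Spp1 (osteopontin) had 6.53, 5.82 and 7.27 CPM in 96h_Early against 0.542, 0.720 and 0.712 CPM in 96h_CTL (3.31 ± 0.17). Esrrb and Klf2 had log2 fold changes of 2.14 ± 0.13 and 2.17 ± 0.20. Sox15, Dppa3 and Lifr were higher too, with log2 fold changes of 2.07 ± 0.27, 2.21 ± 0.34 and 1.01 ± 0.08. The call of Sox15 was lost on log2(FPKM + 0.1) and log2(FPKM + 1). The 5 without a call were Tbx3 (0.35 ± 0.24), Klf4 (-0.37 ± 0.19), Tfcp2l1 (0.03 ± 0.09), Prdm14 (-0.27 ± 0.29; called at -0.56 without the third 96h_CTL library) and Jam2 (-0.02 ± 0.26). Gbx2, also a gene of the caudal body axis, had 17.7, 14.5 and 15.1 CPM in 96h_Early against 220.1, 187 and 149 CPM in 96h_CTL (-3.57 ± 0.29), and Klf5 had 15.9, 15.9 and 17.0 CPM against 57.4, 56.7 and 19.7 CPM (-1.48 ± 0.25), with the third control library low. In 96h_Early over 72h_Early, 11 of the 20 were lower, 0 were higher and 9 were not called by edgeR, where 17.6% of all genes tested were lower. At an unadjusted p under 0.05, 0 were higher by edgeR and 1 by the DESeq2 Wald test, which called 0 after adjustment. In 72h_Early over 96h_CTL, 14 were higher, 2 lower and 4 not called, where 34.3% of all genes tested were higher and 35.4% lower.

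**Figure D3:**
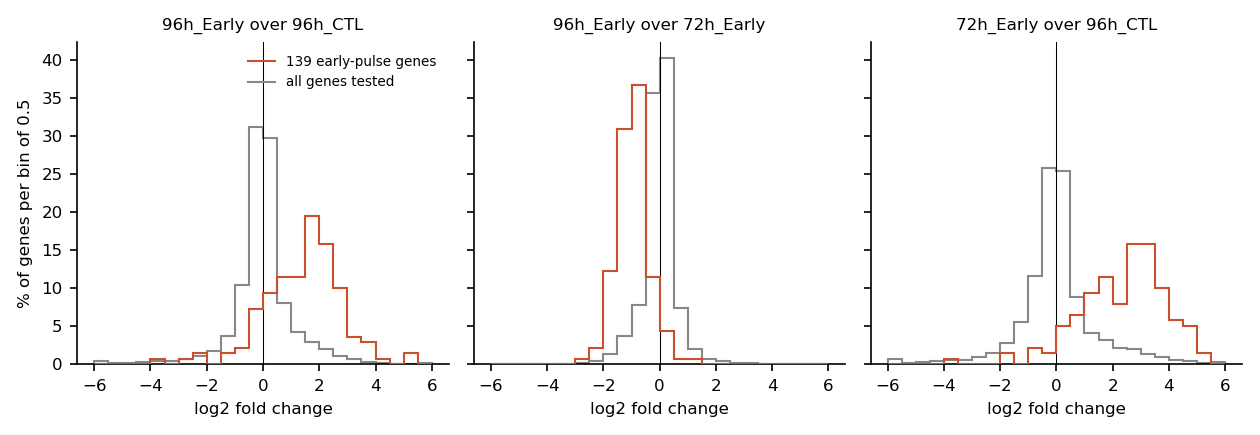
Share of genes per bin of 0.5 in log2 fold change for the 139 genes (red-orange) and all 16041 genes tested (grey), 1 panel per tested comparison. Values beyond 6 are drawn in the end bins. The 139 genes centre on 1.73, -0.92 and 2.68 from left to right, and all genes on -0.01, 0.01 and -0.01.

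By known role, the genes of methylation and imprint control split. Dnmt3l had 229, 197 and 230.4 CPM in 48h_Early against 52.5, 58.7 and 68.9 CPM in 48h_CTL, and its 96h_Early over 96h_CTL log2 fold change was 2.68 ± 0.16. Morc1, a silencer of transposons in the male germ line, had 71.8, 71.3 and 78.5 CPM in 48h_Early against 24.2, 28.4 and 38.0 CPM in 48h_CTL and was higher at 96 h (log2 fold change 2.39 ± 0.20). Zfp57, the zinc finger protein that protects methylation at imprinted loci, had 273, 222 and 263 CPM in 48h_Early against 59.4, 61.2 and 79.8 CPM in 48h_CTL. Its 96 h libraries held 108, 82.6 and 105 CPM in 96h_Early and 77.1, 73.3 and 66.4 CPM in 96h_CTL, a log2 fold change of 0.43 ± 0.18 just short of the call by edgeR (quasi-likelihood adjusted p = 0.0518). The groups did not overlap. Zfp57 was called without the second 96h_Early library (0.56), without any 1 of the 72h_CTL libraries (0.44) or without the third 48h_CTL library (0.44). Kat6b, a histone acetyltransferase, was not called at 96 h (-0.17 ± 0.08) but was lower without the first 96h_CTL library (-0.21) or the second 96h_Early library (-0.23), and Arid5b, a chromatin-binding cofactor, was lower in 96h_Early (-0.62 ± 0.11).

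Of 9 germline genes, 7 were higher in 96h_Early than in 96h_CTL and 8 were lower in 96h_Early than in 72h_Early. Of all 139 members 100 and 113 were called so, and of all genes tested 29.5% and 17.6%. Hormad1, an organiser of the meiotic chromosome axis, had 56.1, 56.6 and 54.8 CPM in 48h_Early, 33.9, 33.0 and 35.1 CPM in 72h_Early and 13.3, 11.1 and 15.3 CPM in 96h_Early. Control levels were 20.8, 23.8 and 39.8 CPM in 48h_CTL, 2.09, 2.02 and 5.32 CPM in 72h_CTL and 0.917, 1.27 and 1.88 CPM in 96h_CTL. The third control library was highest at each age, and no early library overlapped the controls of its age. The 96 h log2 fold change was 3.33 ± 0.33. Tex14, a component of the bridges between germ cells, gave 1.89 ± 0.24, Zp3 of the egg coat 2.56 ± 0.50, the meiotic proteasome subunit gene Psma8 2.30 ± 0.23 and the tumour rejection antigen gene Trap1a 2.13 ± 0.11. Nlrp4f and Spata31d1b were not called (0.41 ± 0.36 and 1.30 ± 0.86). Over the whole germline list of 20 genes, 18 had a 48 h difference under 1, and 14 of 18 tested were higher at 96 h. The list of genes of the 2-cell-like state gave no member.

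Zinc finger genes not placed under another role, mostly of the KRAB kind, formed a group of 5. One of them, Zfp264, is annotated as a transcribed pseudogene. Zfp459 had 14.1, 13.7 and 16.0 CPM in 96h_Early against 2.62, 2.27 and 2.07 CPM in 96h_CTL (log2 fold change 2.62 ± 0.13), Zfp819 gave 2.62 ± 0.22 and Zfp981 2.23 ± 0.29. Zfp229 was not called at 96 h (-0.04 ± 0.10). All 5 in this group were lower in 96h_Early than in 72h_Early, as were 113 of the 139 members and 17.6% of all genes tested. Zfp42 and Zfp296, placed elsewhere, were lower there too, and Zfp57 was not called (-0.42 ± 0.18).

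Genes better known from the immune system or innate sensing made up 16 members. Of these, 9 were higher in 96h_Early than in 96h_CTL, 1 was lower and 6 were not called. In the whole set 100 of 139 were higher and 8 lower, and of all genes tested 29.5% and 29.6%. Aim2, a sensor of cytosolic DNA, had 55.2, 56.7 and 51.3 CPM in 48h_Early against 19.9, 23.0 and 31.1 CPM in 48h_CTL and was higher at 96 h (log2 fold change 1.83 ± 0.19). Bin2 gave 2.11 ± 0.16, the lysosomal protein gene Laptm5 2.03 ± 0.46 and the thymic regulator Aire 2.19 ± 0.47. Ddx58 (RIG-I), a sensor of viral RNA, was not called at 96 h (-0.09 ± 0.14), with 45.8, 49.1 and 45.3 CPM in 48h_Early against 8.61, 10.7 and 13.4 CPM in 48h_CTL. Of 5 leukocyte genes, Ptprc was at 0 to 0.230 CPM in 48h_Early and 0.188 to 0.312 CPM in 48h_CTL, and Csf1r had 0 counts in both groups. Itgam stood higher without overlap (1.51 to 1.96 CPM in 48h_Early and 0.706 to 1.12 CPM in 48h_CTL), and Cd3e was at 1.08 to 1.46 CPM in 48h_Early and 0.632 to 1.12 CPM in 48h_CTL. Summed over the 5, of which Cd68 held most, the level was 15.6 to 17.1 CPM in 48h_Early and 9.72 to 15.1 CPM in 48h_CTL, without overlap. It was 7.78 to 8.48 CPM in 72h_Early and 5.31 to 8.89 CPM in 72h_CTL. At 96 h it was 4.45 to 5.24 CPM in 96h_Early and 3.43 to 4.38 CPM in 96h_CTL, without overlap and in the direction of most members, while Ptprc had 0 counts in both groups. The part of such cells in the result was not tested.

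Muscle genes were the next group, with 5 of 6 higher in 96h_Early than in 96h_CTL and 6 of 6 lower in 96h_Early than in 72h_Early. The second of these calls was not stable for Mymx, whose log2 fold change was -0.64 ± 0.21 and -0.48 to -0.66 without any 1 of 5 of the 6 libraries compared, with no call. The FPKM alternatives did not call it either. Ttn lost its call against 72h_Early on log2(FPKM + 1) and on log2(FPKM + 1) of all genes. Among all 139 members, 100 were higher than in 96h_CTL and 113 were lower than in 72h_Early. Among all genes tested the shares were 29.5% and 17.6%. Ttn, titin, the giant spring of the sarcomere, had 46.2, 89.1 and 53.2 CPM in 48h_Early against 5.98, 12.7 and 8.87 CPM in 48h_CTL. Its second library was the highest in both groups. Mymx, the myomixer of myoblast fusion, had 17.4, 15.8 and 19.4 CPM in 48h_Early against 1.31, 1.98 and 2.68 CPM in 48h_CTL, and Mylpf, a myosin light chain of fast muscle, 28.0, 25.9 and 28.2 CPM against 3.01, 5.03 and 4.56 CPM. The log2 fold changes of 96h_Early over 96h_CTL were 1.82 ± 0.41 for Ttn, 2.12 ± 0.27 for Mymx and 0.66 ± 0.19 for Mylpf. Ttn was not called on log2(FPKM + 0.1) (0.40) or on log2(FPKM + 1) (0.05). Among the master genes of muscle, Myog was at 0 to 0.108 CPM in 48h_Early and 0.125 to 0.188 CPM in 48h_CTL, and Myod1 at 0.137 to 0.575 CPM in 48h_Early and 0.376 to 0.583 CPM in 48h_CTL. Myf5 stood higher without overlap, at 0.686 to 0.918 CPM in 48h_Early and 0.312 to 0.486 CPM in 48h_CTL, and at 0.596 to 0.831 CPM in 96h_Early and 0 to 0.453 CPM in 96h_CTL. Summed over 6 muscle genes, the level was 4.77 to 5.71 CPM in 48h_Early and 4.52 to 5.62 CPM in 48h_CTL. It was 6.65 to 7.53 CPM in 72h_Early and 4.09 to 4.40 CPM in 72h_CTL, and 4.59 to 5.20 CPM in 96h_Early and 1.33 to 2.07 CPM in 96h_CTL. At both later ages this sum thus stood higher with the members, without overlap, though not every gene in it did. Myh3 held much of it at 72 h (3.46 to 3.94 CPM in 72h_Early and 0.531 to 0.943 CPM in 72h_CTL). Acta1 went the other way there (0.856 to 1.35 CPM in 72h_Early and 1.48 to 2.34 CPM in 72h_CTL). At 96 h Myod1 and Myog overlapped between the arms. The part of muscle-like cells in the result was not tested.

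At the cell surface, Nphs1 (nephrin) and its partner Kirrel2, adhesion proteins of the kidney filter, were both members. Nphs1 had 159, 146 and 144 CPM in 48h_Early against 24.4, 23.9 and 48.7 CPM in 48h_CTL, and 32.3, 30.1 and 30.2 CPM in 96h_Early against 4.83, 3.27 and 4.86 CPM in 96h_CTL. Both were higher in 96h_Early than in 96h_CTL, with log2 fold changes of 3.81 ± 0.21 for Kirrel2 and 2.82 ± 0.28 for Nphs1. Hnf4a, a regulator of extraembryonic endoderm and liver, had 3.34, 2.13 and 2.54 CPM in 48h_Early against 0.292, 0.564 and 0.936 CPM in 48h_CTL and was higher at 96 h (log2 fold change 1.58 ± 0.37), a call lost on log2(FPKM + 0.1) (0.79) and on log2(FPKM + 1) of all genes (0.22). The extraembryonic endoderm list around it summed to 61.3 to 105 CPM in 48h_Early and 76.9 to 88.0 CPM in 48h_CTL. At 72 h it summed to 159 to 175 CPM in 72h_Early and 126 to 151 CPM in 72h_CTL. At 96 h the order was the other way, with 213 to 229 CPM in 96h_Early and 306 to 500 CPM in 96h_CTL. Of its 13 genes tested, 7 were higher in 96h_Early than in 96h_CTL and 4 lower, where 29.5% and 29.6% of all genes tested were.

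Metabolic enzymes and transporters counted 15, of which 10 were higher in 96h_Early than in 96h_CTL, 1 was lower and 4 were not called. The whole set had 100 of 139 higher and 8 lower, and all genes tested 29.5% and 29.6%. Pfkp began at 168, 159.6 and 165 CPM in 48h_Early against 64.9, 62.1 and 76.6 CPM in 48h_CTL. The vesicular nucleotide transporter Slc17a9 had a log2 fold change of 2.51 ± 0.17 at 96 h and the potassium channel Kcnk5 0.69 ± 0.08. Upp1, uridine phosphorylase, had 87.7, 87.4 and 79.7 CPM in 48h_Early against 32.6, 38.3 and 54.3 CPM in 48h_CTL but passed none of the 3 tests, and its 96h_CTL libraries were spread, at 64.3, 53.5 and 29.8 CPM. Slc7a1 was not called at 96 h (0.15 ± 0.09) but was called without the third 96h_Early library (0.24). Ubxn2a, among the members of highest count, had 59.0, 54.0 and 54.7 CPM in 96h_Early against 27.0, 28.5 and 30.8 CPM in 96h_CTL. The actin-bundling gene Lima1, another of them, had 88.9, 84.5 and 84.9 CPM in 96h_Early against 40.4, 43.5 and 83.7 CPM in 96h_CTL, with the third control library close to the early ones. Its call there was lost with only the groups compared (0.64).

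A group of 8 genes was lower in the early arm at 96 h. Fn1, fibronectin, the matrix protein laid down by mesoderm, had 969.7, 958 and 898 CPM in 48h_Early against 432, 449 and 529 CPM in 48h_CTL. At 96 h it had 285, 286 and 240.3 CPM in 96h_Early against 1927, 2158 and 714 CPM in 96h_CTL, a log2 fold change of -2.58 ± 0.25. Every 96h_CTL library was above every 96h_Early library, the third by far the least. Gprc5a, a retinoic acid-inducible receptor, had 1.78, 2.07 and 1.67 CPM in 48h_Early against 0.340, 0.235 and 0.250 CPM in 48h_CTL, and then 1.21, 0.440 and 0.715 CPM in 96h_Early against 8.96, 11.6 and 14.4 CPM in 96h_CTL (-3.90 ± 0.27). Its control libraries at 96 h exceeded every other library of the series.

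Nlrc4, an inflammasome component, had 5.03, 4.20 and 4.53 CPM in 96h_Early against 24.0, 23.4 and 6.34 CPM in 96h_CTL (fitted as 4.01-fold lower), and Lgals3, galectin-3, 1.44, 1.66 and 1.67 CPM against 11.2, 10.4 and 1.81 CPM (-2.33 ± 0.42). In both, the third 96h_CTL library was close to the early ones and the other two were far higher. Slc4a5, a bicarbonate transporter, had 27.6, 28.2 and 26.2 CPM in 96h_Early against 62.7, 57.6 and 50.1 CPM in 96h_CTL (-1.07 ± 0.10), with all control libraries above all early ones. Arid5b (-0.62 ± 0.11), the actin nucleator gene Cobl (-0.68 ± 0.19) and the ciliary gene Hydin (-1.06 ± 0.26) completed the 8. Of the 8, Gprc5a, Fn1, Slc4a5, Nlrc4, Arid5b and Lgals3 were fitted again with each library left out, and all 6 stayed called.

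**Figure D4:**
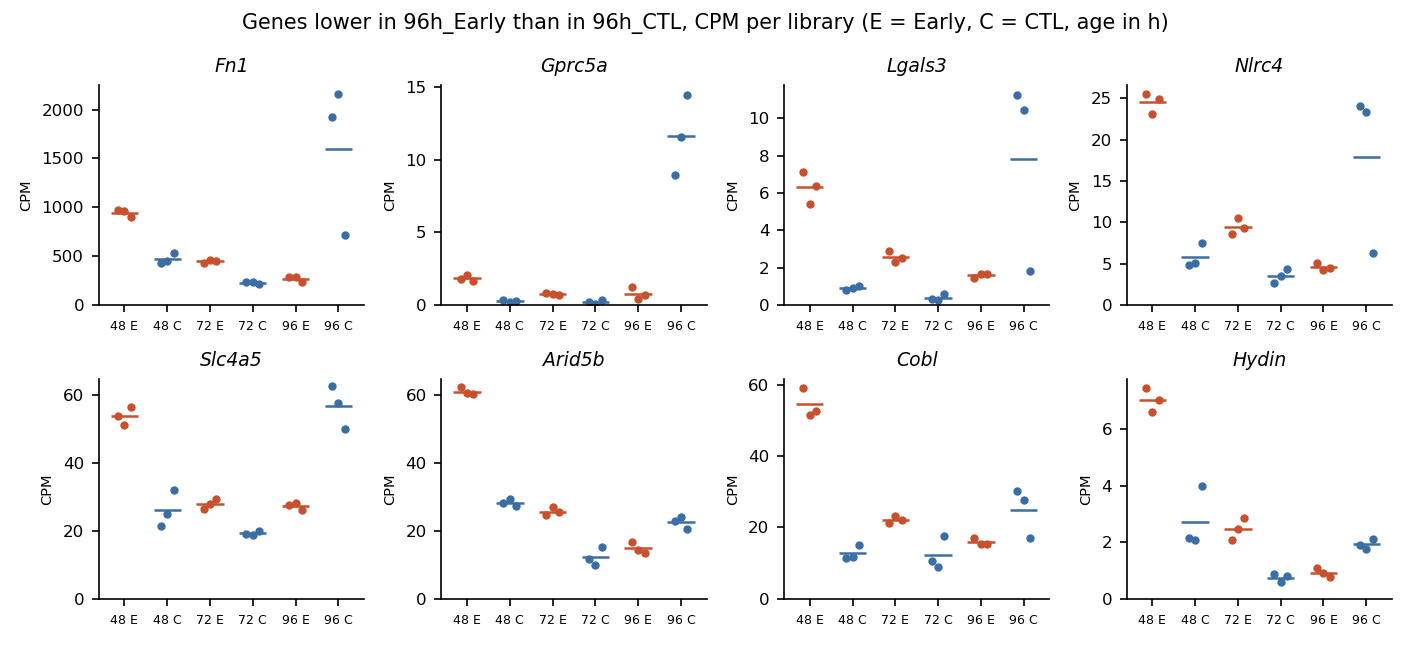
CPM of the 8 genes lower in 96h_Early than in 96h_CTL, in each library (points) with group means (bars), Early in red-orange left of CTL in blue at each age. The panels start at 0. In Fn1, Nlrc4, Lgals3 and Cobl 1 of the 96h_CTL points lies well below the other 2.

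Members lay close to each other in the genome more often than other genes lay close to a member. Within 100 kb of its ends, 38 of 139 members (27.3%) had another member, against 506 of 15902 other tested genes (3.18%) that had a member. The 38 formed 16 groups, 5 of them with 3 or more genes. On chromosome 10 Aire, Dnmt3l and Icosl adjoined, and Aire and Dnmt3l overlap on opposite strands (Dnmt3l chr10:78041947-78063622, Aire chr10:78030022-78043610, mm10). The next tested gene on one side, Pfkl, averaged 249 CPM in 48h_Early against 339 CPM in 48h_CTL, and that on the other, Gatd3a, 27.5 CPM against 30.4 CPM. On chromosome 17 Zfp57 stood with H2-M5, H2-M6-ps and 2410137M14Rik. H2-M6-ps, a pseudogene, had the largest 48 h difference of all members (3.07 in log2(CPM + 1)), at 18.1, 14.6 and 16.5 CPM in 48h_Early against 0.778, 0.988 and 1.50 CPM in 48h_CTL, and H2-M5, a class I-like histocompatibility gene, the third largest (2.93). Beyond them Gabbr1 averaged 71.5 CPM in 48h_Early against 46.8 CPM in 48h_CTL and Znrd1as 6.98 CPM against 7.49 CPM.

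On chromosome 7 Kirrel2, Nphs1 and the antisense transcript Nphs1os adjoined around the pseudogene Rps12-ps4, which was no member, with Aplp1 next to them at 43.8 CPM in 48h_Early against 27.3 CPM in 48h_CTL. Spn, Mylpf and Sept1 lay further along the same chromosome, with 3 tested genes that were not members between them. Tbc1d10b, Cd2bp2 and Zfp553 averaged 90.4, 248 and 94.5 CPM in 48h_Early against 93.0, 237 and 116 CPM in 48h_CTL. On chromosome 13 lay the long noncoding RNA gene Lncenc1, named for naive stem cells, with Gm8756 overlapping it and Gm2379 beyond. Lncenc1 had 223, 197 and 202 CPM in 48h_Early against 49.5, 54.0 and 84.0 CPM in 48h_CTL. On chromosome 8 Triml1 and Triml2 formed a pair, and Zfp42 was the next tested gene, 101 kb away. Tdgf1 adjoined Lrrc2 on chromosome 9: Lrrc2 had 5.73 ± 0.992 CPM in 96h_Early against 0.382 ± 0.121 CPM in 96h_CTL (mean ± SD, n = 3 each) and, unlike Tdgf1, was lower in 96h_Early than in 72h_Early (-1.10 ± 0.23). The strand setting of the counting is not given in the sources used here, so the counts of overlapping pairs such as Nphs1 and Nphs1os, Aire and Dnmt3l, or Lncenc1 and Gm8756 are uncertain.

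The promoters of the set had a lower ratio of observed to expected CpG, the site at which DNA is methylated, than those of other tested genes. Against RefSeq promoters at large the median ratio was about the same, and the share of windows at 0.6 or more was lower. This is a description with no test. Sequences of the 250 bases before the start site were taken from RefSeq (GRCm38.p6), where 106 members had 134 windows. The ratio of observed to expected CpG was at least 0.6, a usual mark of CpG islands, in 34 member windows (25.4%), against 62.1% of 14635 windows of other tested genes and 34.0% of all 32851 windows. Medians were 0.374 for the members, 0.699 for other tested genes and 0.373 for all windows. The 4 windows below, with CG in capitals, are shown as examples below and above 0.6. Ratios of the member windows ran from 0 to 1.24, and the 4 shown cover a middle stretch of that range. Ttn has 4 CpG sites and a ratio of 0.257. Zfp42 has 9 sites (0.423), Tdgf1 7 sites (0.648) and Manba 19 sites (0.752). Each is written 5′ to 3′ on the strand of its gene.
Ttn, chr2:76982548-76982797, minus strand: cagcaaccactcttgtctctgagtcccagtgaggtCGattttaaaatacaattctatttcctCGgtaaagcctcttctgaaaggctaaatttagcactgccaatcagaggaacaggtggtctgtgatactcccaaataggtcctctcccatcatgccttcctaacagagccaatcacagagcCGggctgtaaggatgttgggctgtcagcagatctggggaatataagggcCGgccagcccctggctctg
Zfp42, chr8:43307010-43307259, minus strand: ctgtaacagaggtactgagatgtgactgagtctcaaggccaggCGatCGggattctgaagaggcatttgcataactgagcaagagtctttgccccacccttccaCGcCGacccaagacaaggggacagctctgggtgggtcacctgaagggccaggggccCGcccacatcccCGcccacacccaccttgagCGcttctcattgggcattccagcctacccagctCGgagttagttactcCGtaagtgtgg
Tdgf1, chr9:110946159-110946408, minus strand: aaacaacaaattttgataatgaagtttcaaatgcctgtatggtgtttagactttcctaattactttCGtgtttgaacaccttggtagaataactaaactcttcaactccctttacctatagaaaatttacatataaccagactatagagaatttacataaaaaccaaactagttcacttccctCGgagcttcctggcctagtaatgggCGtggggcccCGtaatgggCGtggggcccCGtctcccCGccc
Manba, chr3:135485361-135485610, plus strand: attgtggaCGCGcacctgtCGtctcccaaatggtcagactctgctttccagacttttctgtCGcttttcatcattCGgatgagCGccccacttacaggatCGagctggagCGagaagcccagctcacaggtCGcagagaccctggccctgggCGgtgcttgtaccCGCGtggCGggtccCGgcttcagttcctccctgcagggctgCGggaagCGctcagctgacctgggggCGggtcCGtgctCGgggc
The log2 fold changes of 96h_Early over 96h_CTL were 1.93 ± 0.09 for Zfp42 and 1.92 ± 0.09 for Manba. Whether the CpG ratio goes with the fold change was not tested.

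**Figure D5:**
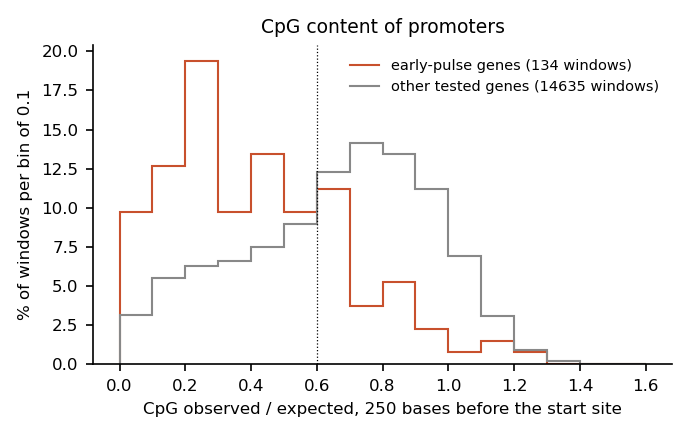
Share of promoter windows per bin of 0.1 in the ratio of observed to expected CpG, for the members (red-orange, 134 windows) and other tested genes (grey, 14635 windows). The dotted line marks 0.6, which 25.4% of member windows and 62.1% of the others reach.

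Short motifs of factors tied to this network were searched on both strands of the same 250 bases. The TCF/LEF core CTTTGAT was in 1 of 134 member windows (0.746%), against 2.32% of windows of other tested genes and 3.21% of all windows. The Esrrb motif TCAAGGTCA was in 0 member windows, against 0.239% and 0.387%. The STAT motif TTCNNNGAA was in 7 (5.22%), against 5.62% and 7.02%. The Klf motif GGGNGGGGC was in 32 (23.9%), Zfp42 among them, against 26.1% and 15.5%. A match is a string of letters and not a bound site, and the windows leave out distal enhancers.

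Over the 18 libraries, the members whose pattern was most like that of Esrrb were Ubxn2a (Pearson's r = 0.973 in log2(CPM + 1)), Manba (0.963), Mreg (0.962), Hspb1 (0.959) and Mymx (0.954). The libraries share groups, and 48h_Early had chosen the members, so the values rank likeness and test nothing. Mreg, a gene of melanosome transport, had 51.8 ± 2.78 CPM in 48h_Early against 17.1 ± 1.33 CPM in 48h_CTL (mean ± SD, n = 3 each), and Hspb1 had 39.8, 32.8 and 38.2 CPM against 11.8, 11.5 and 15.5 CPM. At the other end were Gprc5a (-0.30), Fn1 (-0.06) and Slc4a5 (0.15). Of the members, 121 (87.1%) were annotated as protein coding, as were 87.4% of the genes tested, and 6 were long intergenic noncoding RNAs.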

How the data were processed

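PolyA RNA of pooled gastruloids was sequenced in 18 libraries. Cutadapt 4.0, STAR 2.7.8a and Cufflinks 2.2.1 and the build mm10 are named in the submitters' processing notes, whose text gives no counting setting. The table of counts per gene holds whole numbers as deposited, not normalized by the authors. The FPKM table (fragments per kilobase of transcript, scaled by depth) is as deposited by the authors, per the file headers. The members, roles, marker lists and gene lists were chosen with earlier results of these data known.

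From the counts, CPM used raw column totals, and edgeR 4.0.16 (R 4.3.3) fitted 1 coefficient per group to all 18 libraries with TMM scaling, filterByExpr and the quasi-likelihood test over 16041 genes, with Benjamini-Hochberg adjustment and calls at an adjusted p under 0.05. Standard errors are the log2 fold change over the square root of F. All 139 members passed the filter. DESeq2 1.42.0 and limma 3.58.1 on log2(FPKM + pseudocount) gave alternatives. The fit was tested on simulated data. Genes named were members in a list, the most counted, those with the largest 48 h differences, the lowest adjusted p-values per direction, those at the edges of the rule and those most like Esrrb. Other genes named by role, the leukocyte, muscle and endothelial genes and the promoters shown were chosen after their values were seen. Same-numbered libraries correlated at -0.04 to 0.12, so the numbers were not taken as pairs. Gene positions (mm10) were read from the FPKM table, with starts counted from 1.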

Additional observations from a re-analysis of the deposited data

How the results depend on the processing

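The counts of the 139 genes in 96h_Early over 96h_CTL (100 higher, 8 lower) stayed within 1.5 times under every alternative run, with 97 to 103 higher and 8 to 10 lower when 1 library was left out. In 96h_Early over 72h_Early, the count of higher genes (2) was 1 with a 2-fold threshold, with DESeq2 size factors and on log2(FPKM + 0.1) or log2(FPKM + 1), 0 by the DESeq2 Wald test and on log2(FPKM + 1) of all genes, 4 with only the groups compared, and 0 to 2 with 1 library left out. The count of lower genes (113) was 62 with the 2-fold threshold, 75 on log2(FPKM + 0.1) and on log2(FPKM + 1) of all genes, and 91 to 118 with 1 library left out. For the naive list in that comparison, 1 gene was higher, against 0, without the filter, with only the groups compared and without the 3 control libraries numbered 3, with 0 to 1 when 1 library was left out. The 2-fold threshold left 4 lower, against 11, and leaving out 1 library gave 9 to 12. In 72h_Early over 96h_CTL the 5 lower genes became 3 with the 2-fold threshold and 4 to 7 with 1 library left out, and the 127 higher became 125 to 130. Selection on log2(FPKM + 1) gave 88 genes, 76 of them among the 139, and leaving out 1 library gave 120 to 154. The replicate block gave 101 higher and 8 lower at 96 h, 2 and 114 against 72h_Early, and 129 and 6 in 72h_Early over 96h_CTL; it made Zfp57 called in the first 2 (0.42 and -0.43) and changed no other call of a named gene there. No direction was reversed where a called value was compared. Causes were not tested. Genes of few counts, such as Spic and Tcl1, are limited by depth.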
